A study of Mus musculus with 32 samples.

Results

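Aspartate metabolism and the malate-aspartate shuttle were followed in 10 genes, chosen by name, of the 17757 genes in the count table. They were Got1, Got2, Mdh1, Mdh2, Slc25a12 and Slc25a13 of the shuttle, and Asns, Cad, Ass1 and Asl, which use aspartate or its product. All 10 were present, and no filter on low values was applied. The spheroids were of 4T1, a mouse mammary carcinoma line. They were grown for 5 days on top of soft agar, in lung-like medium (LLM) with horse serum, Matrigel and rat collagen I. The cells were polyclonal lines selected after lentiviral delivery of a short hairpin RNA, so that every group, controls included, carried a hairpin vector. ASP shSCR carried a non-targeting hairpin and had 700 µM aspartate in the medium, and NoASP shSCR was the same line with no aspartate added. ASP shGRIN2D and ASP shDHPS had 700 µM aspartate and were silenced for Grin2d, a subunit of the NMDA receptor, or for Dhps, deoxyhypusine synthase, the first enzyme of eIF5A hypusination. Each of the 4 conditions had 4 spheroid pellets. Each pellet gave a polysomal library, of mRNA carrying more than 3 ribosomes, and a sub-polysomal library, of mRNA carrying fewer, which makes 32 libraries.

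The malate-aspartate shuttle carries the electrons of cytosolic NADH into mitochondria. Cytosolic aspartate aminotransferase (Got1) and malate dehydrogenase (Mdh1) turn aspartate into malate, malate enters the mitochondrion, and the mitochondrial isoenzymes Got2 and Mdh2 turn it back into aspartate, which the carriers Slc25a12 and Slc25a13 export in exchange for glutamate. In proliferating cells the same reactions supply aspartate for asparagine (Asns, asparagine synthetase), pyrimidines (Cad, the trifunctional enzyme that joins aspartate to carbamoyl phosphate) and argininosuccinate, which Ass1 makes from aspartate and citrulline and Asl splits into arginine and fumarate. Asns is a known target of ATF4, the transcription factor of the amino acid response.

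Library totals ran from 12870563 to 25639437 counts, with a median of 18168765. The 10 genes had from 70 counts, for Asl in its lowest library, to 11685 counts, for Mdh2 in its highest. To see whether each library resembled its label, it was placed on a scale built from the remaining conditions, with 0 as their average sub-polysomal and 1 as their average polysomal profile. The scale used 11046 genes that reached 10 counts in all libraries. Replicate 1 of polysomal ASP shSCR, at 0.37, stood apart from the other 15 polysomal libraries, which lay between 0.78 and 1.27. The lowest of those 15, at 0.78, was replicate 2 of ASP shSCR, a condition that enters every comparison between conditions. Its replicates 3 and 4 lay at 1.02 and 1.00. The part of these positions in the differences of ratio was not tested. The sub-polysomal libraries lay between -0.11 and 0.16. Medians over the 10 genes in comparisons with ASP shSCR, and the main differences of single genes, are also given without ASP shSCR replicate 1. Of 8 markers of the carcinoma epithelium, 7 were measured, led by Krt8, and their sum lay between 1871 and 6652 CPM (counts scaled to library size) over the 32 libraries. Of 7 leukocyte markers 2 were measured, with Cd68 at a mean of 11.6 CPM and Ptprc, which defines leukocytes, at a group mean of at most 0.393 CPM. The endothelial sum, from Pecam1 alone, was at most 0.658 CPM. The fibroblast sum, from 2 of 5 markers, was 99.1 to 239 CPM, nearly all of it Thy1.

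The silenced genes were read first. Sub-polysomal Dhps averaged 40.2 ± 4.72 CPM (SD, n = 4) in ASP shSCR and 10.0 ± 0.785 CPM in ASP shDHPS, a log2 difference of -2.01 (SE 0.16, edgeR adjusted p = 1.11e-08). In the polysomal libraries it fell by 1.64 on the log2 scale (SE 0.23, edgeR adjusted p = 0.0166). Grin2d was low everywhere, at 21 to 126 counts. It averaged 4.56 ± 1.61 CPM in sub-polysomal ASP shSCR and 2.49 ± 0.435 CPM in sub-polysomal ASP shGRIN2D. Its log2 difference was -0.88 (SE 0.29) there and -1.14 (SE 0.33) in the polysomal libraries, and neither passed the edgeR test (adjusted p = 0.232 and 0.262).

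Most of the 10 mRNAs were enriched in polysomes relative to other mRNAs, Cad least on the average of all pellets. The measure was the log2 ratio of the polysomal to the sub-polysomal library of the same pellet, on a scale normalised over all 32 libraries, so that it is relative to the other mRNAs and not a number of ribosomes. In ASP shSCR, 8 of the 10 were higher in polysomes by edgeR's quasi-likelihood test with Benjamini-Hochberg adjustment, where 20.8% of all genes were called in this direction. In NoASP shSCR it was 10 of 10 against 23.7% of all genes, in ASP shGRIN2D 9 of 10 against 23%, and in ASP shDHPS 9 of 10 against 21.8%. None was called lower. Many of the 17757 genes had too few counts to be called, and among the 10909 genes with a mean of at least 50 counts the shares were 32.3, 36.6, 35.6 and 33.6%. The exceptions were Cad in ASP shSCR, ASP shGRIN2D and ASP shDHPS (adjusted p = 0.472, 0.109 and 0.0567) and Got2 in ASP shSCR (adjusted p = 0.123). Without the ASP shSCR pellet that stood apart 7 of the 10 were called in ASP shSCR, Ass1 being lost. Of all genes 7159 were then called higher or lower there, against 7058 with it.

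**Figure D1:**
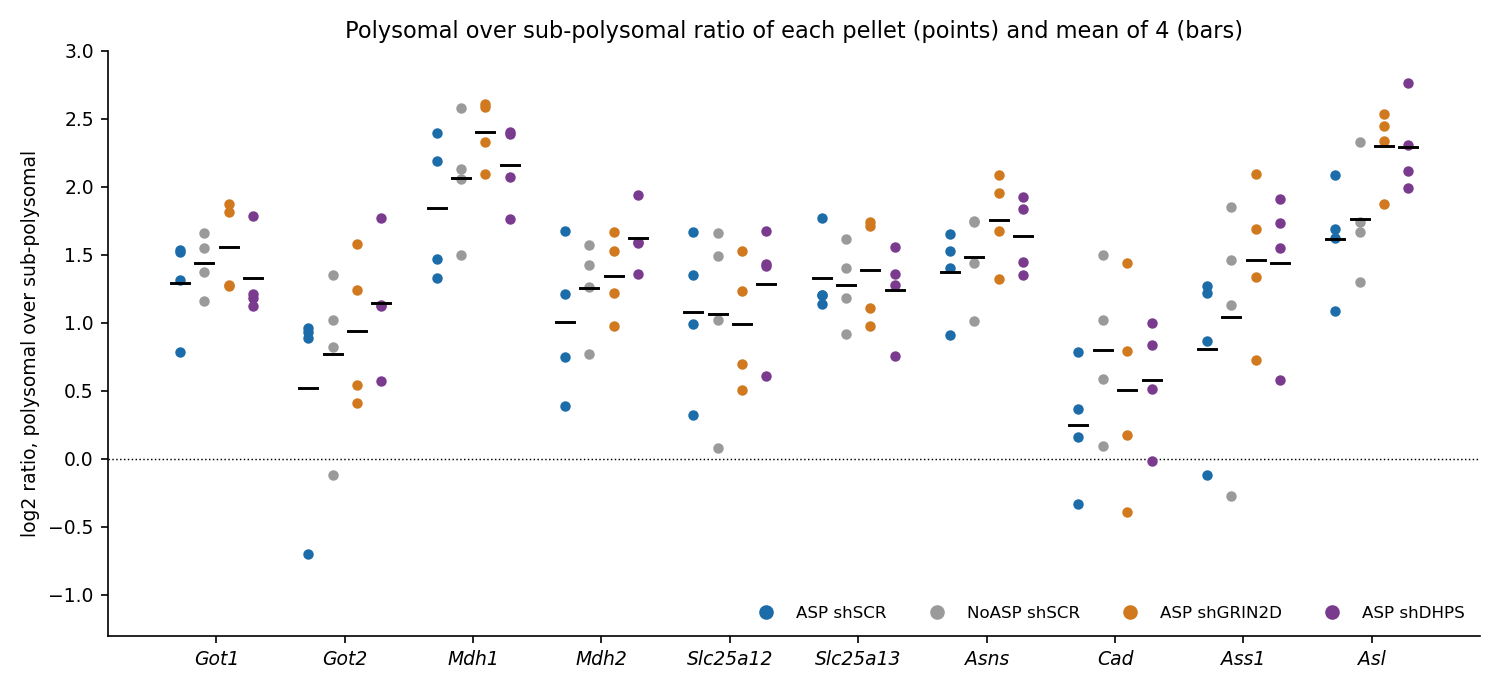
Log2 ratio of the polysomal to the sub-polysomal library for each of the 16 pellets (points, coloured by condition) and the mean of each condition (black bars), by gene. Mdh1 and Asl lie highest. Cad lies lowest on the average of the 16 pellets, while in NoASP shSCR the mean of Got2 (0.77) is below that of Cad (0.80). No condition is separated from ASP shSCR for any of the 10 genes.

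Mdh1 had the highest ratio of the 10. Its log2 ratio was 1.33, 1.47, 2.19 and 2.40 in the 4 ASP shSCR pellets and 2.13, 1.50, 2.06 and 2.58 in the NoASP shSCR pellets. Over the 16 pellets it averaged 2.12 ± 0.41 (SD), above that of 99.7% of the genes with a mean of at least 50 counts, whose median was 0.15. Asl followed at 1.99 ± 0.46, above 99.5% of those genes. Cad was lowest at 0.53 ± 0.57 and fell below 0 in 3 of the 16 pellets. The other 7 averaged 0.85 (Got2) to 1.56 (Asns).

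Within both enzyme pairs of the shuttle the mRNA of the cytosolic isoenzyme had the higher ratio. The log2 ratio of Got1 exceeded that of Got2 in 16 of 16 pellets, by 0.56 ± 0.41 (SD) on average and by 0.02 to 1.49 in single pellets. That of Mdh1 exceeded Mdh2 in 16 of 16, by 0.81 ± 0.29 and by 0.18 to 1.19. The carriers showed no such order, Slc25a13 being above Slc25a12 in 10 of 16 pellets. These differences between genes are descriptions of the same 16 pellets and were given no test. Both gaps were narrowest in ASP shDHPS, at 0.18 ± 0.25 for Got1 and Got2 and 0.54 ± 0.28 for Mdh1 and Mdh2 (n = 4). In ASP shSCR they were 0.77 ± 0.48 and 0.84 ± 0.34, and the pellets of these conditions overlapped. For Got1 and Got2 the overlap, and most of the mean of 0.18, came from ASP shDHPS replicate 2, at 0.55. The other ASP shDHPS pellets, the lowest at 0.02, lay below the ASP shSCR range of 0.43 to 1.49. The top of that range, which raised the ASP shSCR mean, came from ASP shSCR replicate 2, where the log2 ratio of Got2 was -0.70. The gap of Mdh1 and Mdh2 was widest in ASP shGRIN2D, at 1.06 ± 0.08, where its lowest pellet (0.94) lay above the highest of ASP shDHPS (0.81).

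Genes of nearly equal coding length differed in their ratio. The coding sequences of Mdh1 and Mdh2 are almost equally long, at 1005 and 1017 nucleotides, as are those of Got1 (1242) and Got2 (1293), taken from the principal transcript of GENCODE on the GRCm38 build. Among genes with a mean of at least 50 counts, those with coding sequences of 1000 to 1500 nucleotides had a median log2 ratio of 0.26 (quartiles -0.64 and 0.93), and those over 4500 nucleotides a median of 0.25 (quartiles -0.09 and 0.53). Of the 6 genes in the first class only Got2 lay inside the quartiles, and Cad, the longest of the 10 at 6678 nucleotides, lay at the upper quartile of its class. A coding length was found for 95.1% of these genes.

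**Figure D2:**
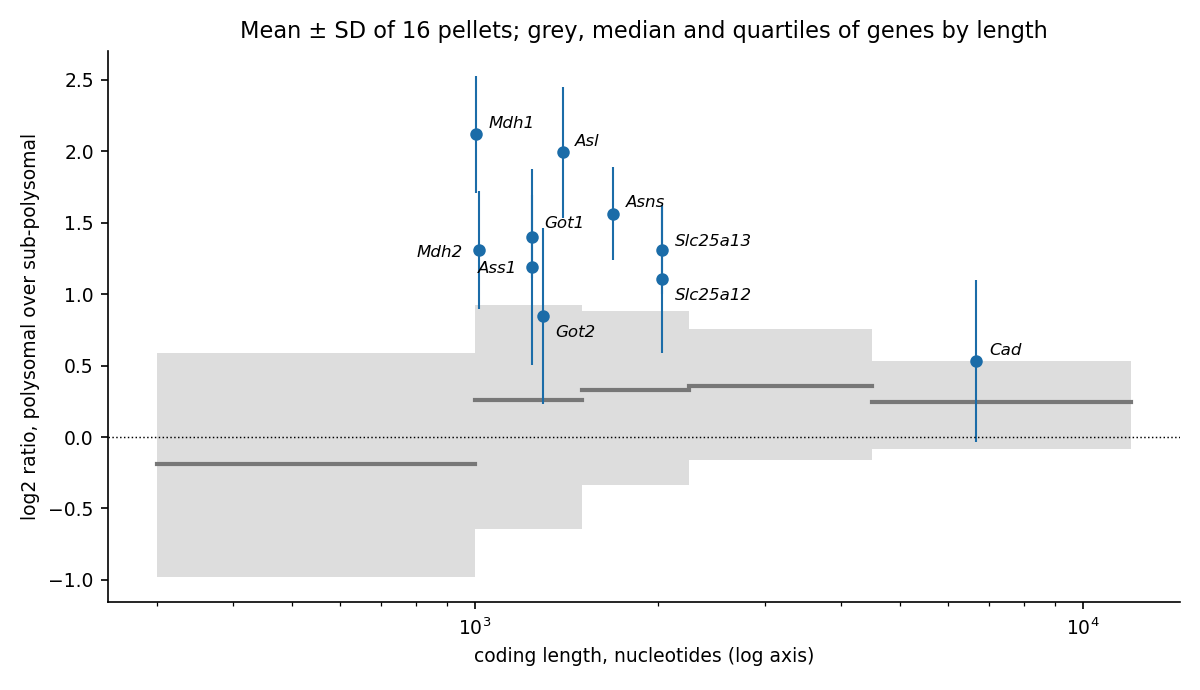
Mean log2 polysomal to sub-polysomal ratio over 16 pellets (points, bars are SD) against coding length on a log axis. Grey bands and lines give the quartiles and median of all genes with a mean of at least 50 counts in each length class, and 9 of the 10 genes lie above the band or at its upper edge, the exception being Got2.

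The levels of the 10 mRNAs spanned a wide range. Per kilobase of transcript, the sub-polysomal level in ASP shSCR was highest for Mdh2, at 121 ± 15.0 CPM per kb (SD, n = 4), followed by Got2 at 94.4 ± 23.1, Mdh1 at 31.5 ± 2.99, Asns at 14.9 ± 1.09 and Got1 at 9.53 ± 0.733. Mdh2 and Got2 were 1.16 SD apart and exchanged places when the coding length was used. Ass1, Slc25a13, Cad and Asl lay between 4.46 and 5.65 CPM per kb, with each neighbour in that order less than 1 SD apart, and Slc25a12 was lowest at 1.81 ± 0.20. With the coding length in place of the transcript length Cad was lowest in both fractions of ASP shSCR. The transcript of Slc25a12 has 6351 nucleotides and its coding sequence 2034. In the polysomal libraries of ASP shSCR the order at the top was Mdh2 (250 ± 70.7), Got2 (138 ± 41.9) and Mdh1 (116 ± 31.2 CPM per kb), of which the last 2 differed by less than their SD.

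The mitochondrial isoenzymes had the more abundant mRNAs, and the carrier Slc25a13, which is the more abundant one in liver, exceeded Slc25a12. Got2 exceeded Got1 per kilobase by 8.01-fold as a geometric mean in the sub-polysomal libraries (5.73 to 13.3 over 16 libraries) and by 5.43-fold in the polysomal ones (4.18 to 6.63). Mdh2 exceeded Mdh1 by 3.94-fold (3.07 to 5.04) and 2.24-fold (1.75 to 3.16). Slc25a12 was at 0.350 of the level of Slc25a13 in sub-polysomal libraries and at 0.304 in polysomal libraries. Per kilobase of coding sequence these became 0.712 and 0.618, with Slc25a12 the higher one in 1 of 16 libraries of each fraction, and Mdh2 exceeded Mdh1 by 2.67-fold and 1.52-fold. In all 32 libraries Got2 lay above Got1 and Mdh2 above Mdh1.

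**Figure D3:**
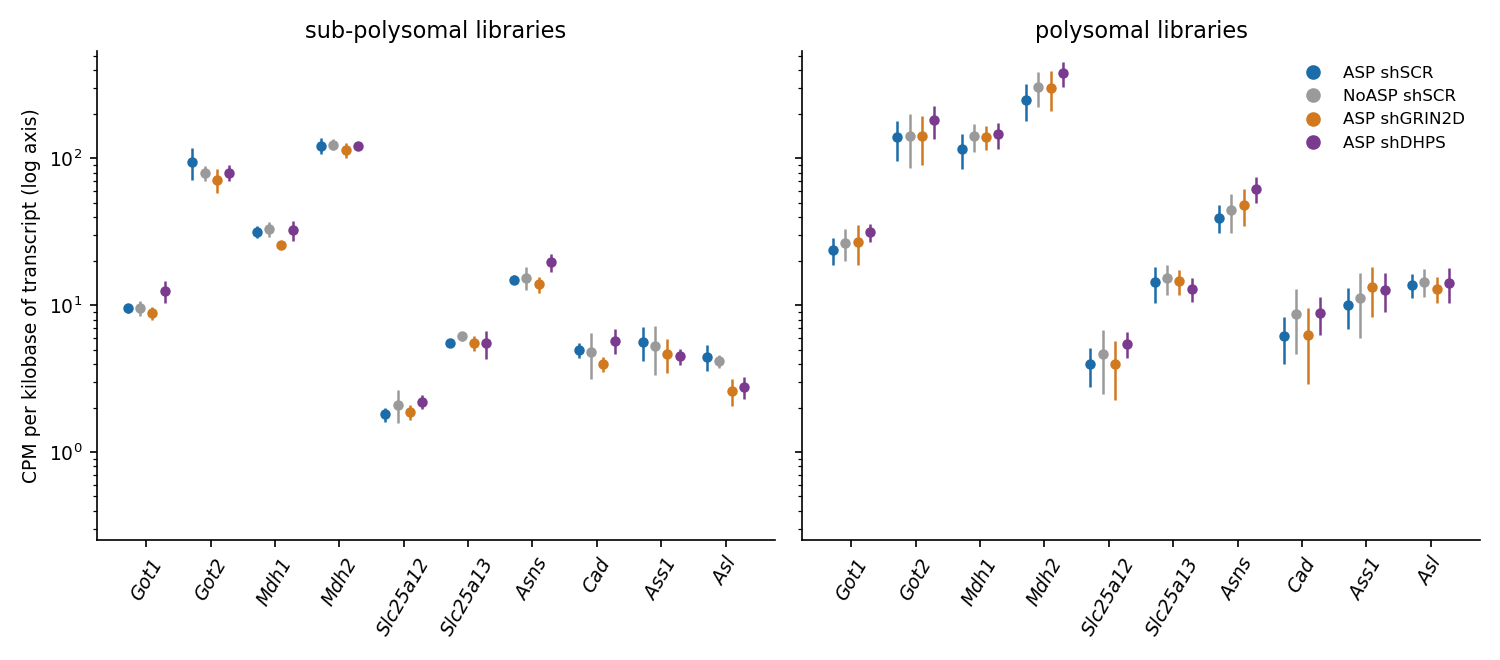
Level of each of the 10 mRNAs in CPM per kilobase of transcript on a log axis, as mean and SD of the 4 libraries of each condition, in the sub-polysomal (left) and polysomal (right) libraries. Mdh2 and Got2 lead and Slc25a12 is lowest in both fractions.

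The comparison of ASP shSCR with NoASP shSCR asked whether aspartate in the medium changed the ribosome loading or the amount of these mRNAs. None of the 10 passed the edgeR test for the difference in ratio, in sub-polysomal level or in polysomal level. For each of these 3 measures 0% of all genes were called. Of all genes, 343, 871 and 1376 had an unadjusted p under 0.05, and DESeq2 called 0, 1 and 1. None of the 10 genes reached an unadjusted p under 0.05 or a DESeq2 call. Their log2 ratio was lower with aspartate in 8 of 10, with a median difference of -0.18 against -0.02 over all genes. The count moved with the pellets used. Without ASP shSCR replicate 2 alone 3 of 10 were lower (median 0.04), without NoASP shSCR replicate 2 alone 10 of 10 (median -0.36), and without the pellets numbered 2 of all conditions 9 of 10 (median -0.12). Without the pellet that stood apart, ASP shSCR replicate 1, 8 of 10 were lower with a median of -0.18. In the same ratio difference all 7 measured epithelial markers were below 0 (median -0.20), as were the 2 measured leukocyte markers (median -0.29). None of these markers was called, and their part was not tested.

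Cad had the largest of these differences. Its log2 ratio was 0.16, -0.33, 0.37 and 0.79 in ASP shSCR and 1.02, 0.59, 0.09 and 1.50 in NoASP shSCR. The groups overlapped, and the difference of -0.55 (SE 0.35, 95% interval -1.27 to 0.16) did not pass the test (edgeR adjusted p = 1). It was -0.54 without ASP shSCR replicate 1, and ran from -0.79 to -0.32 over the pellets left out in turn, the last without NoASP shSCR replicate 4. The remaining 9 differed by -0.25 (Mdh2) to 0.05 (Slc25a13). The intervals were wide: that of Got1, the narrowest, ran from -0.66 to 0.36, and that of Ass1 from -1.08 to 0.61. Leaving out 1 pellet turned the sign for 7 of the 10 genes, and it held only for Cad, Mdh1 and Mdh2. Without ASP shSCR replicate 2 the difference was 0.15 for Got2, 0.07 for Ass1, 0.04 for Asns and 0.02 for Got1.

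The levels with and without aspartate were close to each other. In the sub-polysomal libraries Got1 averaged 9.53 ± 0.733 CPM per kb with aspartate and 9.54 ± 1.09 without it, a log2 difference of 0.01 (SE 0.16). The 10 differences ran from -0.21 (Slc25a12) to 0.26 (Got2), and 5 of 10 were above 0. In the polysomal libraries they ran from -0.45 (Cad, SE 0.37, and -0.16 without NoASP shSCR replicate 4) to 0.04 (Got2), and 1 of 10 was above 0. Over the 8 pellets left out in turn this was 0 to 7 of 10, with 7 when ASP shSCR replicate 2 or NoASP shSCR replicate 4 was left out. It was 0 when the pellet left out was ASP shSCR replicate 1 (median -0.19) or 4, or NoASP shSCR replicate 2. Without the pellets numbered 2 of all conditions it was 1 of 10 (median -0.11). In sub-polysomal level 4 of 10 were above 0 without ASP shSCR replicate 1 (median -0.03). In these bulk libraries a lower level can come from fewer cells that make an mRNA or from less of it per cell, and those cannot be told apart.

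**Figure D4:**
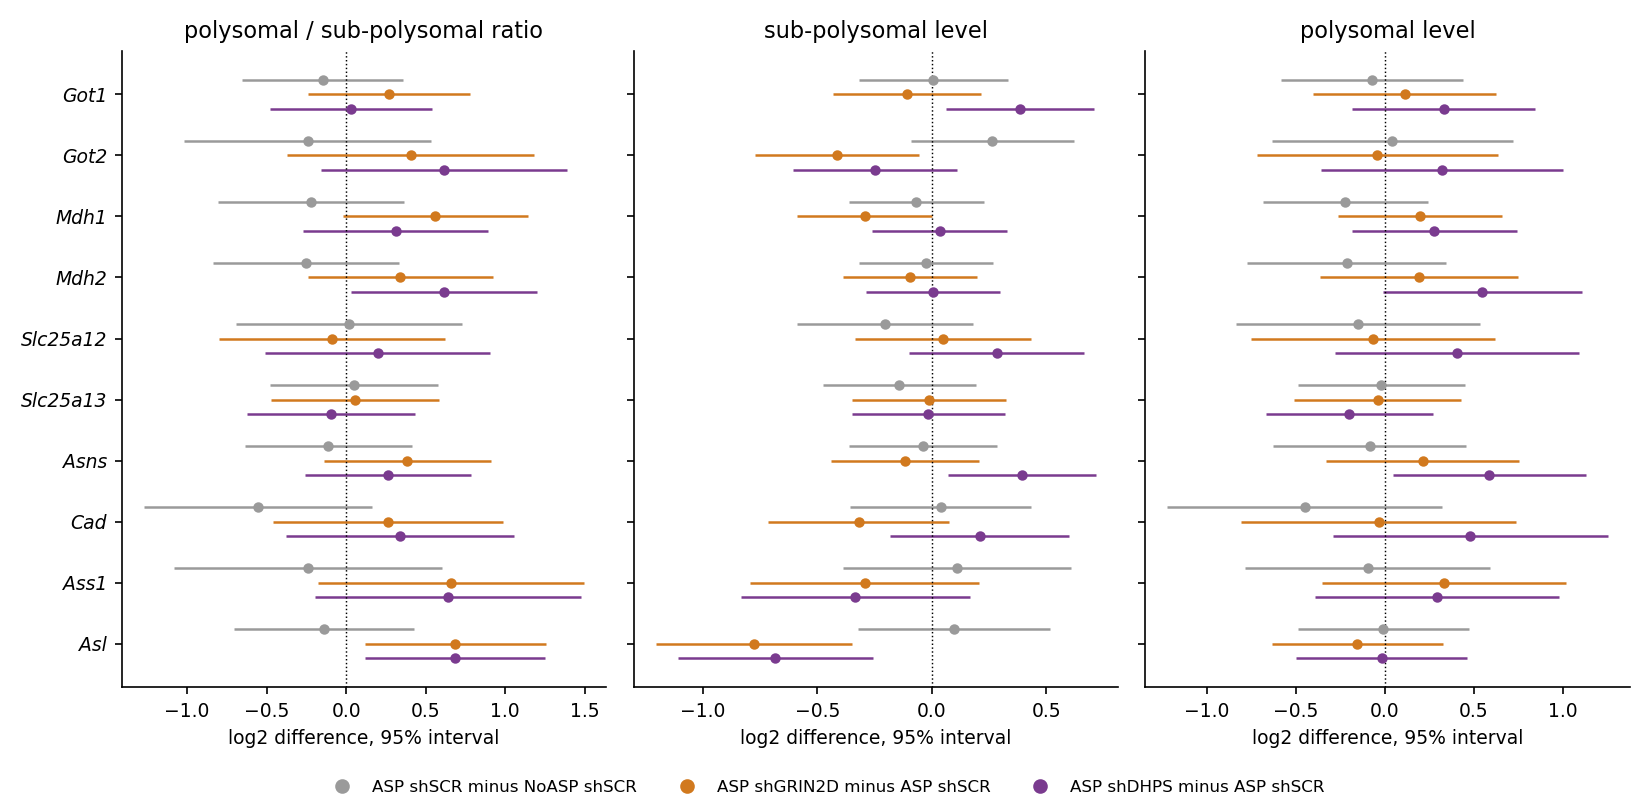
Log2 differences with 95% intervals for the 10 genes in the polysomal to sub-polysomal ratio (left), the sub-polysomal level (middle) and the polysomal level (right), for 3 comparisons (colours) that share or include the ASP shSCR libraries. Asl lies furthest from 0 in the middle panel in both silenced lines, and no difference shown passed the adjusted threshold.

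In ASP shGRIN2D against ASP shSCR, none of the 10 passed the edgeR test in ratio (0% of all genes called), in polysomal level (0.0169%) or in sub-polysomal level (0.316%). For the ratio, 571 of all genes had an unadjusted p under 0.05, Asl among them, and DESeq2 called 0. In polysomal level none of the 10 reached an unadjusted p under 0.05, where 1608 of 17703 genes did. In sub-polysomal level Asl and Got2 did, as did 1955 of 17736 genes. DESeq2 called Asl there, and it called more of all genes in that comparison than edgeR did. The groups did not overlap in sub-polysomal level for 2 of the 10, Asl and Mdh1, where 5.48% of all genes did not. The log2 ratio was higher in the silenced line for 9 of 10, with a median difference of 0.36 against 0.01 over all genes, and 9 of 10 were lower in sub-polysomal level, with a median of -0.20 against 0. Without the ASP shSCR pellet that stood apart these medians were 0.37 and -0.18, again for 9 of 10 each, and without ASP shSCR replicate 2 they were 0.14 and -0.11, also for 9 of 10 each. With the pellets numbered 2 left out of all conditions they were 0.32 and -0.08, again for 9 of 10 each. The counts moved with other pellets. In ratio 7 of 10 were higher without ASP shGRIN2D replicate 4 (median 0.27), 8 without its replicate 1 (median 0.19) and 10 without its replicate 2. In sub-polysomal level 8 of 10 were lower without ASP shGRIN2D replicate 1 or ASP shSCR replicate 4, and 10 without ASP shGRIN2D replicate 4. In ratio, 6 of 7 epithelial markers were above 0, with a median of 0.38 and none called, and the 3 measured nuclear RNAs (Malat1, Neat1 and Kcnq1ot1), a sign of fraction quality led by Neat1, were all below 0, with a median of -0.58 and none called. The summed nuclear RNA averaged 63.2 CPM in polysomal ASP shSCR, 50.2 CPM in ASP shGRIN2D and 38.7 CPM in ASP shDHPS. The leukocyte marker sum, almost all Cd68, was 16.2 CPM (14.0 to 20.9) in polysomal ASP shGRIN2D, above the highest ASP shSCR library at 13.1 CPM, with neither measured marker called. The part of either sum in the ratios was not tested.

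Asl, argininosuccinate lyase, differed most. It lies on chromosome 5 at 130011258 to 130029247 (GRCm38), with 16 exons and a coding sequence of 1395 nucleotides. Its sub-polysomal level was 8.61, 13.4, 11.5 and 9.60 CPM in ASP shSCR, 7.44, 4.37, 6.92 and 6.43 CPM in ASP shGRIN2D and 6.54, 5.83, 6.18 and 8.39 CPM in ASP shDHPS. All 8 libraries of the silenced lines lay below the lowest of ASP shSCR. The NoASP shSCR libraries, at 11.1, 10.5, 10.3 and 8.62 CPM, lay within the range of ASP shSCR. The log2 difference was -0.78 in ASP shGRIN2D (SE 0.21, 95% interval -1.21 to -0.35, edgeR adjusted p = 0.11) and -0.68 in ASP shDHPS (SE 0.21, interval -1.11 to -0.26, edgeR adjusted p = 0.0938). Neither passed the main test, while DESeq2, which called more of all genes than edgeR in both comparisons, called both (adjusted p = 0.0262 and 0.0338). Without ASP shSCR replicate 1 they were -0.88 and -0.79 (edgeR adjusted p = 0.0965 and 0.0927). With the pellets numbered 2 left out in all conditions both came to -0.50 (edgeR adjusted p = 0.506 and 0.425). The 2 comparisons share their ASP shSCR libraries and are not independent.

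The polysomal level of Asl differed less. It was 28.0, 28.5, 35.6 and 41.1 CPM in ASP shSCR, 37.9, 25.9, 25.7 and 35.5 CPM in ASP shGRIN2D and 45.1, 23.5, 31.0 and 36.7 CPM in ASP shDHPS. The groups overlapped in part, with 2 of 4 ASP shGRIN2D libraries and 1 of 4 ASP shDHPS libraries below the lowest of ASP shSCR, and the log2 differences were -0.16 (SE 0.23) and -0.02 (SE 0.23). The log2 ratio of Asl was thus higher by 0.69 in each silenced line (SE 0.28 in both, unadjusted p = 0.0196 in both, edgeR adjusted p = 1 and 0.260), and by 0.75 in each without ASP shSCR replicate 1. The summed epithelial markers, led by Krt8, were lower in the same libraries. Their sum was 3232, 4572, 2737 and 2989 CPM in sub-polysomal ASP shSCR, 1925, 1871, 2246 and 2035 CPM in ASP shGRIN2D and 1925, 1929, 2375 and 2201 CPM in ASP shDHPS. Of the 7 measured markers 6 were below 0 and none was called in ASP shGRIN2D, while in ASP shDHPS 5 were below 0 and 3 of them (Krt8, Krt18 and Krt14, all keratins) fell by the edgeR test. Their part in the Asl difference was not tested.

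**Figure D5:**
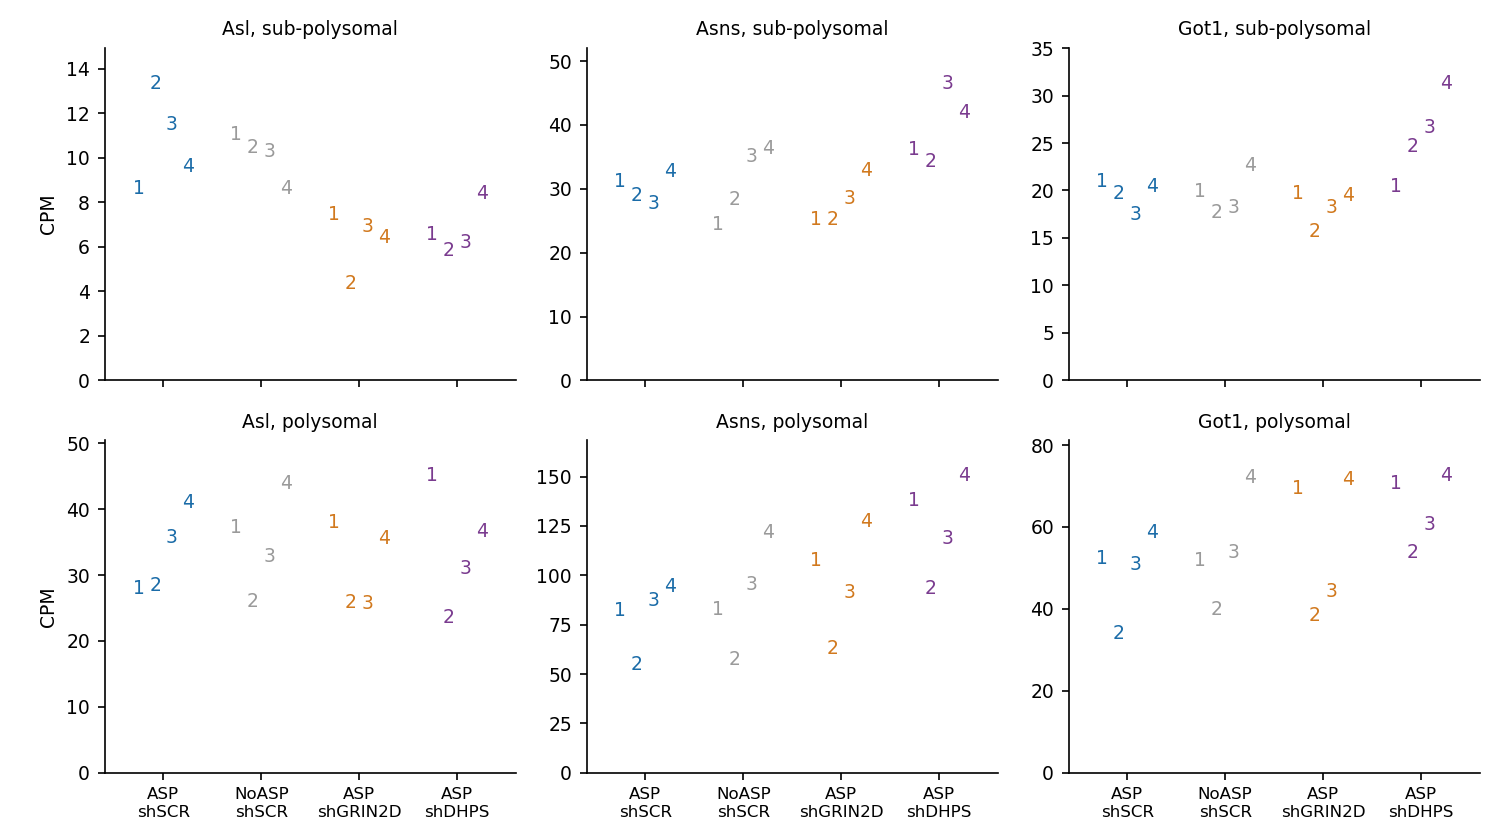
CPM of Asl, Asns and Got1 in each library, sub-polysomal above and polysomal below, with each library drawn as its replicate number and each panel starting at 0. The sub-polysomal Asl values of both silenced lines (4.37 to 8.39 CPM) lie below the lowest ASP shSCR value (8.61 CPM).

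In ASP shDHPS against ASP shSCR, none of the 10 passed the edgeR test either. Of all genes, 0.208% were called in ratio, 0.169% in polysomal level and 1.42% in sub-polysomal level. Unadjusted p was under 0.05 for 2 of the 10 in ratio (Asl and Mdh2), for 1 in polysomal level (Asns) and for 3 in sub-polysomal level (Asl, Asns and Got1). Over all genes this held for 2416 of 17757, 2905 of 17703 and 2833 of 17736, in the same order. DESeq2 called none of the 10 in ratio or polysomal level, and Asl in sub-polysomal level. In each of these measures it called more of all genes than edgeR did, with the counts given in the closing section. The groups did not overlap in sub-polysomal level for Asl, which was lower, and Asns, which was higher, 2 of 10 where 9.3% of all genes did not overlap. The median difference of the 10 was 0.32 in ratio (all genes -0.01), 0.32 in polysomal level (all genes -0.05) and 0.02 in sub-polysomal level (all genes 0.01). Without the ASP shSCR pellet that stood apart the medians were 0.33, 0.44 and 0.07, and without ASP shSCR replicate 2 they were 0.18, 0.17 and 0.04. With the pellets numbered 2 left out of all conditions they were 0.30, 0.30 and 0.09. The leukocyte marker sum, almost all Cd68, did not overlap between the polysomal libraries, at 11.4 CPM (9.08 to 13.1) in ASP shSCR and 22.3 CPM (19.5 to 26.7) in ASP shDHPS, with neither of the 2 measured markers called. In ratio all 7 epithelial markers were above 0 (median 0.61) and all 3 nuclear RNAs below 0 (median -0.61), with none of them called, and their part was not tested.

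Asns lay higher in both fractions of ASP shDHPS. Its sub-polysomal level was 31.1, 29.0, 27.7 and 32.7 CPM in ASP shSCR and 36.2, 34.2, 46.5 and 41.9 CPM in ASP shDHPS, a log2 difference of 0.39 (SE 0.16, edgeR adjusted p = 0.218). Its polysomal level was 82.4, 54.7, 87.2 and 94.4 CPM against 138, 93.2, 119 and 150 CPM, a log2 difference of 0.59 (SE 0.26, edgeR adjusted p = 0.271). With the replicate number as a block this polysomal difference was called (edgeR adjusted p = 0.0312). Without ASP shSCR replicate 1 the sub-polysomal and polysomal differences were 0.40 and 0.68 (edgeR adjusted p = 0.310 and 0.272). All sub-polysomal values of the silenced line were the higher ones, and in the polysomal libraries only replicate 2 of ASP shDHPS fell inside the range of ASP shSCR. Got1 had 20.9, 19.7, 17.5 and 20.4 CPM in sub-polysomal ASP shSCR and 20.4, 24.6, 26.6 and 31.3 CPM in ASP shDHPS, a log2 difference of 0.39 (SE 0.16, edgeR adjusted p = 0.231), with replicate 1 inside the control range, and 0.41 without ASP shSCR replicate 1. In ASP shGRIN2D both genes were close to ASP shSCR in sub-polysomal level, at -0.12 (SE 0.16) and -0.11 (SE 0.16).

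Mdh2 had a higher log2 ratio in ASP shDHPS, at 1.94, 1.36, 1.58 and 1.60, than in ASP shSCR, at 0.75, 0.39, 1.68 and 1.21. The difference of 0.61 (SE 0.28) did not pass the test (edgeR adjusted p = 0.334), the groups overlapped, and it was 0.56 without ASP shSCR replicate 1. Its sub-polysomal level was the same within error, at a log2 difference of 0.00 (SE 0.14), and its polysomal level differed by 0.55 (SE 0.27, edgeR adjusted p = 0.310).

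Asns and Got1 were the only 2 of the 9 genes with a promoter entry that held a match to the C/EBP-ATF response element, the composite site of ATF4 and C/EBP factors. The promoters, 250 bases before to 50 after the start of the gene, came from RefSeq on GRCm38.p6, where Asl had no entry. The element was searched as TGATGNAAN on both strands and occurred in 3.95% of 32851 promoters of that length. The cAMP response element TGACGTCA, found in 1.79% of promoters, occurred in that of Mdh2. The E-box CACGTG, found in 7.15%, occurred in those of Ass1 and Slc25a13. A match describes these letters only. The RefSeq starts are not always those of GENCODE: by the gene positions of GENCODE the matches of Asns, Ass1 and Mdh2 lie inside the gene, and those of Got1 and Slc25a13 before it. Both C/EBP-ATF matches are shown 5′ to 3′ on the strand of the gene, with the element in capitals. Got1 is given by the 120 bases before its start, chr19:43524606-43524725, minus strand, with the element at positions -103 to -95 from the RefSeq start in the opposite orientation. Asns is given by 30 bases, chr6:7693214-7693243, minus strand, with the element at -23 to -15.
Got1: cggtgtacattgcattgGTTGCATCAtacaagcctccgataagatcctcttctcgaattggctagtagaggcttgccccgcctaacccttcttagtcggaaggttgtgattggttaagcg
Asns: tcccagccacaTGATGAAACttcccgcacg

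Other genes of the amino acid response were read beside Asns. Of 27 genes of that response 26 were measured. The edgeR test called none in any of the 3 comparisons of ratio or of polysomal level, nor in sub-polysomal level with aspartate or in ASP shGRIN2D. There 0 to 5 of 26 had an unadjusted p under 0.05, against 343 of 17757 to 2905 of 17703 of all genes. In these comparisons DESeq2 called Cebpb in the ratio of ASP shDHPS and no other. In sub-polysomal level in ASP shDHPS 2 of 26 fell and none rose by the edgeR test, where 0.975% of all genes fell. They were Ddit4, an inhibitor of mTORC1 signalling (log2 difference -1.12, SE 0.28, adjusted p = 0.0380), and Cebpb, a C/EBP transcription factor (-0.71, SE 0.19, adjusted p = 0.0469). DESeq2 called Cebpb and Chac1 there and not Ddit4. In ASP shSCR 10 of 26 were higher in polysomes and 7 lower, where 20.8% of all genes were higher and 18.9% lower, and 32.3% of genes with a mean of at least 50 counts were higher. The higher ones were led by Cth, the cysteine-forming enzyme of transsulfuration (log2 ratio 1.96, SE 0.26), and Psat1 of serine synthesis (1.13, SE 0.18). The lower ones were led by Atf5 (-1.32, SE 0.17), Eif4ebp1 (-1.17, SE 0.22) and Atf4 itself (-1.17, SE 0.19). Atf4 and Atf5 have upstream open reading frames that hold ribosomes back from the main frame. Both were lower in polysomes in all 4 conditions, between -1.53 and -0.98.

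The wider pathway was read in the KEGG set deposited with the counts. Of the 39 symbols in its list for alanine, aspartate and glutamate metabolism 25 matched. None of the 25 was called in any of the 9 comparisons between conditions by the edgeR test, while 0 to 9 had an unadjusted p under 0.05. Over all genes it was 343 of 17757 to 2905 of 17703. The 9 were in sub-polysomal ASP shDHPS, where 2833 of 17736 genes reached it. DESeq2 called Asl in sub-polysomal ASP shGRIN2D, and Asl and Adssl1, a muscle-type adenylosuccinate synthase, in sub-polysomal ASP shDHPS. In ASP shSCR 11 of 25 were higher in polysomes and 1 was lower (20.8% and 18.9% of all genes, and 32.3% higher among genes with a mean of at least 50 counts), with a median log2 ratio of 0.63 against -0.04 over all genes. The highest was Ppat, which starts purine synthesis (1.70, SE 0.17), and the lower one was Gpt, alanine aminotransferase (-1.54, SE 0.23), which was lower in all 4 conditions. In ratio, 5 of 25 were above 0 with aspartate (median -0.12), 22 of 25 in ASP shGRIN2D (median 0.27) and 16 of 25 in ASP shDHPS (median 0.20). The set holds 6 of the 10 genes, so these counts do not stand apart from theirs.

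Enzymes that supply oxaloacetate and glutamate, 26 of 27 measured, had 13 genes higher and 1 lower in polysomes in ASP shSCR. The shares of all genes were again 20.8% and 18.9%, with 32.3% higher among genes with a mean of at least 50 counts. Idh1, the cytosolic isocitrate dehydrogenase (log2 ratio 1.76, SE 0.22), Suclg1 of succinyl-CoA ligase (1.76, SE 0.17) and Fh1, fumarase (1.67, SE 0.20), led them. The malic enzyme Me2 was lower in NoASP shSCR (-0.78, SE 0.20), ASP shGRIN2D (-0.63, SE 0.20) and ASP shDHPS (-0.92, SE 0.20). Of the genes that use aspartate in nucleotides, tRNA charging and N-acetylaspartate, 11 of 15 were measured and 7 were higher in polysomes in ASP shSCR. Of all genes 20.8% were, and 32.3% of those with a mean of at least 50 counts. The 7 were led by Dars, the cytosolic aspartyl-tRNA synthetase (1.62, SE 0.18), Adsl, adenylosuccinate lyase (1.48, SE 0.18), and Umps, which completes UMP synthesis after Cad (1.37, SE 0.17). The edgeR test called no gene of these lists between conditions, with 0 to 6 of 26 and 0 to 2 of 11 at an unadjusted p under 0.05. Over all genes it was 343 of 17757 to 2905 of 17703. DESeq2 called none of the 26 and, of the 11, Adssl1 in sub-polysomal ASP shDHPS.

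Among 10 other mitochondrial carriers and redox shuttle genes 4 were higher and 1 lower in polysomes in ASP shSCR, a share near the 32.3% of genes with a mean of at least 50 counts that were higher. The lactate dehydrogenases Ldha (1.41, SE 0.20) and Ldhb (1.11, SE 0.25), which reoxidise cytosolic NADH without the shuttle, were the highest, and the citrate carrier Slc25a1 was the lower one (-0.71, SE 0.19). Of 14 genes of the urea cycle, arginine and proline 10 were measured, with 4 higher and 1 lower, again near that share. Oat, ornithine aminotransferase (1.99, SE 0.25), was among the higher ones, and Slc25a15, the ornithine carrier, was the lower one (-0.68, SE 0.23). Of 5 transporters for aspartate and glutamate uptake 2 were measured, and neither was called in any comparison. Between conditions the edgeR test called no gene of these 3 lists. At an unadjusted p under 0.05 there were 0 to 4 of the 10 carriers and shuttle genes, 0 to 2 of the 10 urea cycle genes and 0 to 2 of the 2 uptake genes. Over all genes it was 343 of 17757 to 2905 of 17703. DESeq2 called Slc25a11, the carrier that exchanges malate for 2-oxoglutarate in the shuttle, in sub-polysomal ASP shDHPS and no other gene of these lists.

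The replicates numbered 2 had low polysomal values for these genes in every condition. In the polysomal libraries replicate 2 was the lowest of its condition in 34 of 40 cases (10 genes in 4 conditions), and for 6 genes it was the lowest in all 4 conditions. Of the 10909 genes with a mean of at least 50 counts, 9.86% had their lowest polysomal value in replicate 2 of all 4 conditions. In the sub-polysomal libraries replicate 2 was lowest in 12 of 40 cases, and for no gene in all 4 conditions. The log2 ratio was lowest in replicate 2 in 31 of 40 cases. Got2 is an example, with polysomal levels in replicate 2 of 198, 204, 225 and 297 CPM in ASP shSCR, NoASP shSCR and the lines silenced for Grin2d and Dhps, against 275 to 577 CPM in the other 12 polysomal libraries. Neither the labels nor the study's methods tie the number to a shared step. Polysomal libraries of the same number were more alike than others, with median correlations of 0.27 against -0.09. The part of a shared step was not tested. With the 4 pellets numbered 2 left out, 9, 10, 10 and 10 of the 10 genes were higher in polysomes in the 4 conditions, in the same order, by the edgeR test. The shares of all genes called higher in that fit are not given here, and in the main fit they were 20.8, 23.7, 23 and 21.8%. None of the 10 was called in any comparison between conditions without these pellets.

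The 3 genes whose sub-polysomal condition means spanned the widest log2 range were Asl (0.77), Cad (0.51) and Asns (0.50). Over the 16 sub-polysomal libraries the genes most like Asl among 10909 were Igsf9 (Pearson r = 0.88), Rmi2 (0.85) and Epn3 (0.83). Those most like Cad were Nes (0.86), Ganab and Fanca (0.83 each), and those most like Asns were Atp6ap1 (0.89), Lgmn and Creb3 (0.88 each). The libraries share 4 conditions and 1 normalisation, and with so many genes compared the highest of the correlations are high by selection, so they describe likeness in these 16 libraries only.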

How the data were processed

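Polysomal and sub-polysomal RNA of 16 spheroid pellets was sequenced with a stranded poly(A) library kit. Per the labels and the study's methods the authors trimmed reads with Trim Galore 0.6.6, checked them with FastQC 0.11.9, aligned with STAR 2.6.1 to GRCm39/mm39, quantified with Salmon 1.4.0 and tested with DESeq2 1.34.0. The deposited values used here are counts per gene, estimates rounded to whole numbers by the authors, for 17757 genes kept by their filter. The deposited KEGG gene set file lists gene symbols and has no measured unit. Tables with the authors' own fold changes and p-values were not used.

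The 10 genes and the gene lists were chosen with earlier results of these data known. Counts were normalised by TMM and fitted with edgeR 4.0.16 (R 4.3.3). The ratio model held a term per pellet and a polysomal log2 ratio per condition, over 32 libraries. Levels were fitted over the 16 libraries of a fraction. Tests were two-sided with Benjamini-Hochberg adjustment over all genes (threshold 0.05). CPM were normalised over all 32 libraries, and log2 CPM used a prior count of 2. The study's methods describe the 4 pellets of a condition as independent, and the labels give only a replicate number. By rule all 10 genes, the silenced genes and the 3 genes most like each of 3 of the 10 were named. Of each list up to 3 per direction and comparison that passed the test, averaged 50 counts or more and changed most were eligible. Not all of these eligible genes are named in the text. Positions and lengths are from GENCODE on GRCm38, matched by Ensembl ID, since no GRCm39 annotation was used here. The fits were tested on simulated data for ASP shSCR against NoASP shSCR, with 100 changed genes of each size. The simulated counts held no effect of pellet or replicate number, unlike the real ones. The ratio fit recovered 19% of true log2 changes of 1 and 89% of those of 2, and called 4 unchanged genes. The sub-polysomal fit recovered 61% and 99%, and called 10 unchanged genes. Alternatives were DESeq2 1.42.0, its size factors, filterByExpr, a replicate block, no pellet term, subsets of conditions, TMM within fractions, a prior count of 0.5, coding length and each pellet left out, and, chosen after seeing the data, TMM within fractions for single conditions and leaving out the pellets numbered 2. Precision is limited by counting at 70 counts for the lowest value and otherwise by the spread of 4 pellets. The values of 1 listed gene are not reported here.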

Additional observations from a re-analysis of the deposited data

Results flagged for a closer look

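Of 120 groups of 4 values (10 genes in 4 conditions, as log2 ratio, sub-polysomal and polysomal log2 CPM), 5 had a pellet far from the others, judged by its gap to the nearest value over the range of the group. Chance flags about 1 in 20 groups, or 6 of 120. The log2 ratio of Got1 was 1.78 in ASP shDHPS replicate 1 against 1.13 to 1.21 in the other pellets. That of Got2 was -0.70 in ASP shSCR replicate 2 against 0.89 to 0.96. That of Slc25a13 was 1.77 in ASP shSCR replicate 4 against 1.14 to 1.21. The sub-polysomal log2 CPM of Slc25a12 was 3.08 in NoASP shSCR replicate 3 against 3.92 to 3.93, and that of Mdh2 was 7.38 in ASP shDHPS replicate 2 against 7.49 to 7.51.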

How the results depend on the processing

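For the differences between conditions of single genes among the 10, leaving out a pellet gave 720 values, of which 712 kept their direction and side of the threshold or moved by less than the spread and 8 moved further, and the other alternatives gave 600, of which 593 stayed, 4 moved and 3 became significant and none reversed a call, since none of the 10 was called to begin with. Those 3 were Asl by DESeq2 in sub-polysomal ASP shGRIN2D and ASP shDHPS (1 of the 10 called in each) and Asns with the replicate block in polysomal ASP shDHPS (1 of the 10, edgeR adjusted p = 0.0312). Counts over all genes moved more, and the cause was not tested. The 37 genes called in the ratio of ASP shDHPS became 0 with DESeq2 size factors, 664 with DESeq2, 188 with filterByExpr, 231 with the replicate block, 0 with no pellet term, 184 with TMM within fractions, 0 with only the compared conditions and 0 without the pellets numbered 2. In polysomal level the 3 genes of ASP shGRIN2D became 7 with size factors, 69 with DESeq2, 27 with the block, 0 with only the compared conditions and 1 without the pellets numbered 2, and the 30 genes of ASP shDHPS became 563 with DESeq2, 18 with filterByExpr, 405 with the block, 1 with only the compared conditions and 0 without the pellets numbered 2. In sub-polysomal level the 56 genes of ASP shGRIN2D became 231 with DESeq2, 195 with the block and 28 without the pellets numbered 2, and the 251 of ASP shDHPS became 652, 758 and 73. With aspartate the count of 0 became 1 by DESeq2 in each level. Leaving out each pellet in turn gave 0 to 83 genes for the ratio of ASP shDHPS, 0 to 98 and 0 to 304 for the polysomal level of ASP shGRIN2D and ASP shDHPS, and 23 to 62 and 80 to 370 for their sub-polysomal level.

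Of the 10 genes, 7 to 9 were higher in polysomes in ASP shSCR with a pellet left out (Ass1 was lost without replicate 1, 3 or 4, and Got2 was gained without replicate 2), 7 to 10 in NoASP shSCR (Got2, Ass1 and Cad lost without replicate 4, Got2 and Cad without replicate 1, Got2 without replicate 3), 8 to 10 in ASP shGRIN2D and 9 to 10 in ASP shDHPS. In these fits 5603 to 7159, 6619 to 7105, 6542 to 7245 and 6373 to 6898 of all genes were called higher or lower, in the same order. With all pellets it was 7058, 7866, 7722 and 7654. With TMM within fractions, which was chosen after seeing the data, as was leaving out the pellets numbered 2, the median log2 ratio of all genes in ASP shSCR went from -0.04 to 0.13 and the genes higher and lower in polysomes from 3695 and 3363 to 4702 and 2664, and 9, 10, 10 and 10 of the 10 genes were called higher. Pellets with the same number did not all pass the check for pairing, a correlation of their deviations above 0.1. It was passed in 16 of 24 pairs of polysomal libraries, 19 of 24 of sub-polysomal libraries and 13 of 24 ratios. Median correlations were 0.27, 0.21 and 0.13, against -0.09, -0.08 and -0.03 for pellets of different numbers. Of 16 pellets, 11, 13 and 8 correlated best with their own number, a hint from the data that the labels do not give. The main tests between conditions left the number out. Asl had the lowest single count, at 70, while Ass1 had the lowest median count, at 245 against 339.5 for Asl. With 4 pellets a group the intervals of the ratio differences span about 1 log2 unit or more.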
